A study of Mus musculus with 32 samples.

Results

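Gene expression was compared between the distal end (toward the midline) and the proximal end (toward the jaw joint) of the mandible of mouse embryos that lacked Alk5 in the neural crest. The comparison took the 4 arrays labelled as distal mutant mandible and the 4 labelled as proximal mutant mandible, which are 8 of the 32 arrays of the series, and covered every gene that could be named and measured. Mutants carried the Wnt1cre transgene and Alk5 fl alleles, came from matings of Wnt1cre;Alk5fl/+ with Alk5fl/fl mice of the C57B6 strain, were taken at embryonic day 13.5, and were recognised by cleft palate and a calvarial defect. The comparison groups were the distal and proximal mandible of control litter mates, with 4 arrays each, and the distal and proximal maxilla of mutants, with 4 arrays each, all of the same age and strain. The floxed alleles and Cre status of the controls are not given in the sources used here. The labels do not say whether an array holds 1 embryo or a pool, so the errors below measure spread between arrays. Unless a smaller fit is named, each standard error (SE) and test takes that spread from all 8 groups of the 32 arrays together. An SE, and a missed call, can therefore reflect arrays other than the mandible arrays printed beside it. Where each jaw was divided is also not stated.

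Alk5 is the gene Tgfbr1, the type I receptor that carries TGF-beta signals to Smad2 and Smad3. Wnt1cre acts in the neural crest, which forms the jaw mesenchyme, bone, cartilage and dental papilla. Epithelium, muscle, vessels and macrophages of the jaw come from other lineages and keep the receptor gene. In the normal mandible, the distal mesenchyme makes Hand2, Alx and Msx factors near the incisor and the midline, the proximal mesenchyme makes Dlx, Barx1 and Meis factors near the molar and the hinge, and Bmp4 and endothelin from the distal arch set this axis earlier in development.

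The sequences before 4 genes are printed here as examples from the main results. Emx2, a homeodomain transcription factor, had an end difference that itself differed between the genotypes, and its antisense neighbour Emx2os was also lower distally in the mutant. The 250 bases before the RefSeq start of Emx2 (GRCm38.p6, chr19:59458440-59458689, plus strand) are in lower case, with the 54 bases that separate the Emx2os and Emx2 gene models in capitals. C1qb and C1qc encode chains of the complement component C1q and Trem2 encodes a receptor of macrophages, and these genes stand for the 17 macrophage genes that were lower at the distal end. Their 250 bases before the start are at chr4:136886201-136886450 on the minus strand for C1qb, chr4:136892915-136893164 on the minus strand for C1qc and chr17:48346151-48346400 on the plus strand for Trem2, with the motif GAGGAA or its reverse complement TTCCTC in capitals; these genes were picked among those that hold it.
Emx2: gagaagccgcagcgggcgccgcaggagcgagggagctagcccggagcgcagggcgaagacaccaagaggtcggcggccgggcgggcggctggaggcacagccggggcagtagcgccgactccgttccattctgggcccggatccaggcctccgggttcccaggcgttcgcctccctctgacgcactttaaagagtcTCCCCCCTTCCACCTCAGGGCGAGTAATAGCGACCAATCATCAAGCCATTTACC
C1qb: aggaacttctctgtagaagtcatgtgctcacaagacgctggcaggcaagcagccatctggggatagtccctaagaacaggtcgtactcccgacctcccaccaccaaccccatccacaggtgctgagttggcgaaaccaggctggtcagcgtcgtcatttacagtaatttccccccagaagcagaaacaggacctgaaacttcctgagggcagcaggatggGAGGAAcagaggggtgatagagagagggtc
C1qc: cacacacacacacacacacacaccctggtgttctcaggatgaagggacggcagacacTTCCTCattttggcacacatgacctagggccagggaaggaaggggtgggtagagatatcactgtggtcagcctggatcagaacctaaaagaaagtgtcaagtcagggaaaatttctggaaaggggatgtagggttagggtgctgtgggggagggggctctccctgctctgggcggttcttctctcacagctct
Trem2: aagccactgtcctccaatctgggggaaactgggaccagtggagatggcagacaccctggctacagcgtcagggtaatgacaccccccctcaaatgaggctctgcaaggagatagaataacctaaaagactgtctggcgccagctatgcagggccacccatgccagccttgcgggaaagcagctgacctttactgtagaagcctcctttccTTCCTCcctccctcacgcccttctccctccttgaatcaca

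GAGGAA is the core that the macrophage factor PU.1 (gene Spi1) binds. Searched on both strands, it lay in the 250 bases before 9 of the 15 macrophage genes that matched a RefSeq promoter entry (60.0%), of which Mrc1 and Pf4 are not among the 17 lower genes, in 7 of the 13 lower genes with an entry (53.8%), in 4 of 11 genes with an entry among the 15 highest at the distal end (36.4%), in 2 of 9 among the 15 lowest (22.2%), and in 25.7% of the 10987 tested genes with an entry. TAATTA, a homeodomain core that is its own reverse complement, lay before 0 of 11 genes with an entry among the 15 highest at the distal end, 1 of 9 among the 15 lowest, 2 of the 15 macrophage genes (13.3%), and 3.09% of all tested genes with an entry. A gene with several promoter entries counted if any of them held the motif, so the shares are not of a single window per gene. The matches describe the letters in a window and do not show binding. Spi1 itself differed by -0.50 ± 0.21 (SE) on the log2 scale between the ends, with an adjusted p of 0.233.

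All values are log2 RMA values, so a difference of 1 is a doubling. A gene was called where the Benjamini-Hochberg adjusted p of limma's moderated test was under 0.05 over 13705 genes. Array medians over all 32 arrays lay between 7.35 and 7.49. Within the mutant mandible, arrays of the same end correlated at 0.985 to 0.997 (distal) and 0.983 to 0.995 (proximal), arrays of different ends at 0.962 to 0.986, and no 2 arrays were identical. The first principal component of these 8 arrays held 56.3% of their variance and separated the ends. The arrays numbered 1 stood apart: their Xist values were 13.76 to 13.90 against 6.56 to 6.96 in numbers 2 to 4, and their Cre spike-in control read 13.77 to 13.78 against 12.65 to 13.10. The second component, with 22.6% of the variance, set those 2 arrays apart. Each end has 1 array numbered 1, so this split does not run along the ends. In the control mandible, number 1 was low in Xist (6.38 distally, 6.53 proximally) and number 2 was high (13.91 and 13.53). Leaving number 1 out of every group therefore removed Xist-high arrays from the mutant mandible and Xist-low arrays from the control mandible. A single control distal array stood apart in RNA quality, with a Gapdh 3' minus 5' signal of 2.23 against -0.18 to 0.05 in the mutant mandible. Mesenchyme markers were high at both ends (Prrx1 13.26 to 13.66, Twist1 12.62 to 12.92, Pdgfra 12.96 to 13.44), while the brain marker Six3 lay at 6.69 to 7.18, near the 40th percentile of the arrays (6.66 to 6.74), below which values are treated as low.

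Tgfbr1 read 12.99, 12.92, 12.96 and 12.97 in the 4 distal arrays and 12.97, 12.81, 12.86 and 12.90 in the 4 proximal arrays. The difference was 0.08 ± 0.07 (SE, n = 4 and 4, adjusted p = 0.764 by limma). Whether this probe set lies inside the deleted part of the gene is not known here, so the value does not check the deletion.

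In the mutant mandible 690 genes were called (5.03% of 13705), 200 of them higher at the distal end (1.46%) and 490 lower (3.58%). Of these, 263 differed by more than 1 and 63 by more than 2 on the log2 scale. The median difference of all genes was -0.031. Under an unadjusted p below 0.05 there were 2040 genes. For 2467 genes (18%) the 4 distal arrays did not overlap the 4 proximal arrays, with 770 entirely above (5.62%) and 1697 entirely below (12.4%). The number of calls fell to 450 without distal array 2 and to 457 without proximal array 1, and it was 1622 when only these 8 arrays entered the fit.

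**Figure D1:**
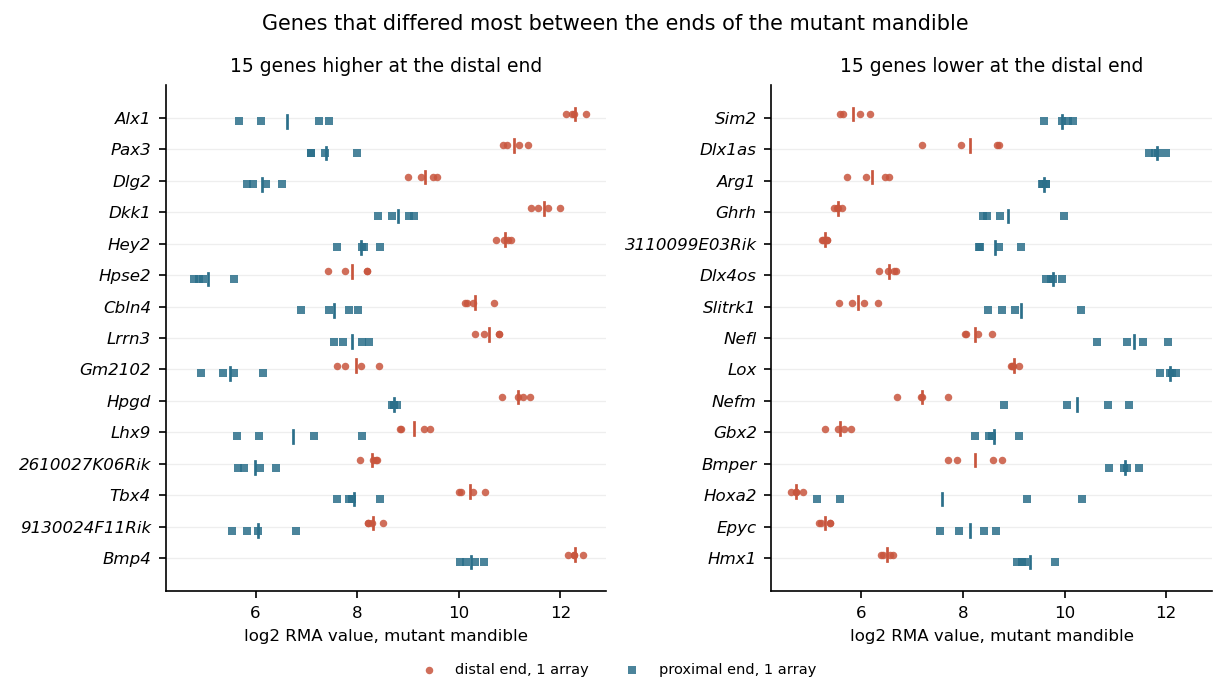
Log2 RMA values (horizontal axis) of the 15 genes most raised and the 15 most lowered at the distal end of the mutant mandible, 1 point per array, circles for the 4 distal and squares for the 4 proximal arrays, with a vertical tick at each mean. The 2 ends do not overlap for any of the 30 genes, which the choice of genes requires, and the 4 proximal values of Hoxa2 are split between 5.13 and 10.35.

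The genes most raised at the distal end were led by transcription factors of the midline mesenchyme. Alx1, a homeodomain factor of facial mesenchyme, read 12.28, 12.23, 12.12 and 12.51 in the distal arrays and 7.44, 7.24, 6.10 and 5.68 in the proximal arrays. The difference was 5.67 ± 0.47 (SE, adjusted p = 8.38e-09), and 2 of the 4 proximal arrays were below the 40th percentile, as were 2 of Lhx9, so the size is less certain than the direction. Pax3, a paired-box factor of neural crest and muscle progenitors, read 11.18, 11.37, 10.95 and 10.87 distally and 7.09, 7.36, 7.09 and 8.0 proximally. All 4 distal values lay over 2 units above the proximal ones, and the difference was 3.71 ± 0.52 (adjusted p = 3.13e-05). The LIM-homeodomain factor Lhx9 rose by 2.38 ± 0.39 (adjusted p = 0.000323), with proximal arrays spread from 5.64 to 8.09. Tbx4, a T-box factor best known from the hindlimb, read 10.52, 10.29, 10 and 10.04 distally against 7.60, 7.89, 7.84 and 8.44 proximally, a rise of 2.27 ± 0.24 (adjusted p = 2.82e-07).

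Secreted signals were also among them. Bmp4, a ligand of the distal arch epithelium and mesenchyme, read 12.28, 12.27, 12.15 and 12.44 distally and 10.14, 10.50, 10.03 and 10.32 proximally. The ends were each tight and well apart, with a 4.11-fold difference (2.04 ± 0.32, adjusted p = 0.000161). Dkk1, a secreted Wnt antagonist, read 11.56, 12, 11.43 and 11.75 distally and 8.68, 8.41, 9.12 and 9.02 proximally, a difference of 2.88 ± 0.69 (adjusted p = 0.0119). Lrrn3, a leucine-rich repeat membrane protein, rose by 2.71 ± 0.20, which with an adjusted p of 1.51e-09 was the smallest p among the 15. Hpgd, which breaks down prostaglandins, rose by 2.44 ± 0.42 (1.32 by another probe set), and the secreted cerebellin Cbln4 by 2.77 ± 0.47. The Notch target Hey2 rose by 2.84 ± 0.74, with an adjusted p of 0.0212. The other members of the 15 were Dlg2 (3.20), Hpse2 (2.84), Gm2102 (2.47), 2610027K06Rik (2.30) and 9130024F11Rik (2.26).

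The genes most lowered distally, and so highest proximally, included Sim2, a bHLH-PAS factor. It read 5.58, 5.64, 6.16 and 5.97 in the distal arrays, all low values, and 10.06, 9.60, 10.17 and 9.96 in the proximal arrays. The difference was -4.11 ± 1.04 (adjusted p = 0.0164), and -2.32 by another probe set of Sim2. The homeobox gene Gbx2 differed by -3.03 ± 0.27 (adjusted p = 1.95e-08), Hmx1, a homeobox gene needed for the outer ear, by -2.81 ± 0.50 (0.000694), and the antisense transcripts Dlx1as and Dlx4os by -3.69 ± 0.93 (0.0163) and -3.22 ± 0.28 (1.95e-08). Hoxa2, the selector gene of the second arch, read 4.71, 4.62, 4.84 and 4.71 distally and 10.35, 9.27, 5.57 and 5.13 proximally, so its difference of -2.86 ± 0.81 (adjusted p = 0.0336) rests on proximal arrays 1 and 2. Without proximal array 1 it was -1.94 (adjusted p = 0.215) and without proximal array 2 it was -2.29 (0.158).

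Matrix and signalling genes were lowered as well. Lox, the enzyme that cross-links collagen and elastin, read 9.10, 8.98, 8.94 and 8.97 distally and 12.20, 12.08, 12.11 and 11.88 proximally. Each end was tight, and the difference was -3.07 ± 0.37 (adjusted p = 2.7e-06). Bmper, a secreted BMP-binding protein, read 7.89, 8.59, 8.77 and 7.71 distally against 11.17, 11.24, 11.46 and 10.87 proximally, a fall of 7.69-fold (-2.94 ± 0.25, adjusted p = 1.51e-08). Epyc, a small cartilage proteoglycan, differed by -2.85 ± 0.54 (0.0014). Ghrh, the growth hormone-releasing hormone, read 5.51, 5.54, 5.62 and 5.45 distally and 9.98, 8.40, 8.72 and 8.47 proximally, and its adjusted p of 4.3e-10 was the smallest of the 30 genes (-3.36 ± 0.23). Arg1, the arginase of the urea cycle that some macrophages also make, read 6.54, 5.71, 6.09 and 6.46 distally against 9.57, 9.63, 9.64 and 9.56 proximally (-3.40 ± 0.63, adjusted p = 0.00108). Neurofilament genes of axons were lower too, Nefl by -3.12 ± 0.79 (0.0169) and Nefm by -3.04 ± 0.83 (0.0282), beside the neuronal membrane gene Slitrk1 (-3.22 ± 0.39). The 15th gene was 3110099E03Rik (-3.34 ± 0.36).

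For 14 of the 30 genes, all 4 arrays of the lower end were below the 40th percentile of their array, where RMA values compress, so their size is less certain than their direction. The 30 genes held their sign in each of the 25 other settings run. With 1 array of the 8 left out, the highest adjusted p of the genes that lost their call was 0.0701 for Hey2 (without proximal array 2; also lost without distal arrays 2 and 4 and proximal array 1), 0.066 for Dlx1as (distal array 4), 0.0659 for Nefl (proximal array 1; also distal array 2), and 0.118 for Nefm (proximal array 1; also distal arrays 2, 3 and 4 and proximal arrays 2 and 3). Hoxa2 also lost its call without any of the distal arrays (up to 0.0873). Leaving out both mutant mandible arrays of a number ended further calls, those of Dkk1 (numbers 1, 2 and 4, adjusted p up to 0.109), Gm2102 (numbers 1, 2 and 3, up to 0.0627), Sim2 (each number, up to 0.102), Hey2 and Dlx1as (each number, up to 0.151 and 0.114), Nefl and Nefm (numbers 1, 2 and 3, up to 0.108 and 0.169) and Hoxa2 (numbers 1 and 2, up to 0.315).

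The same ends of the control mandible gave 664 called genes (4.84%), 314 higher distally (2.29%) and 350 lower (2.55%). No array is shared with the mutant comparison, although both take their error from the same fit. The sets had 257 genes in common, 37.2% of the mutant calls and 38.7% of the control calls, and all 257 had the same sign. Of the 690 mutant calls, 658 had the same sign in the control and 32 the opposite one. Across all 13705 genes, which are not independent replicates, the 2 sets of differences correlated at a Pearson r of 0.741. Of the 30 genes above, 29 had the same sign in the control and 27 were also called there. Without the control array of high Gapdh 3' signal, 465 genes were called in the control. Alx1 was 5.48 higher in the control (control means 12.33 ± 0.10 distally and 6.85 ± 0.55 proximally, SD, n = 4 each), Pax3 3.64 higher and Sim2 lower by -3.56. The 3 genes not called in the control were Dkk1 (1.28, adjusted p = 0.386), Gm2102 (1.45, 0.163) and Arg1 (0.15, 0.969).

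**Figure D2:**
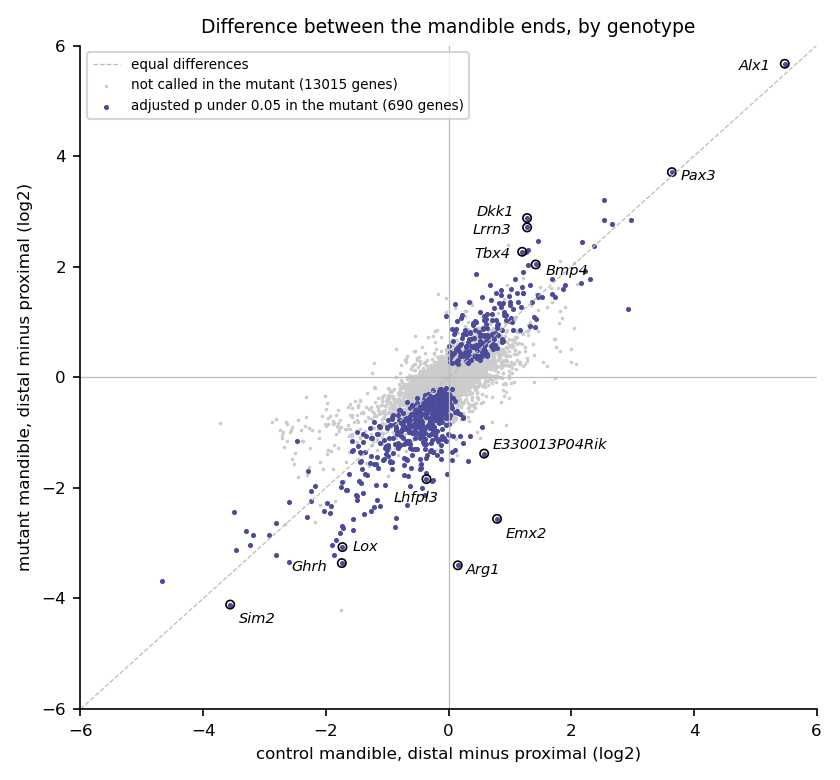
Distal minus proximal log2 difference of each of 13705 genes in the control mandible (horizontal axis) and in the mutant mandible (vertical axis), with the 690 genes called in the mutant in dark points, the others in grey and equal differences on the dashed line. Alx1, Pax3 and Sim2 lie near the line, while Emx2 (0.79 in the control, -2.56 in the mutant), Arg1 and E330013P04Rik lie well below it.

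Whether an end difference itself differed between genotypes was tested as mutant minus control. Over all 13705 genes, 3 passed (0.0219%), and 581 had an unadjusted p below 0.05 (4.24%). Emx2, which is needed in the forebrain, kidney and shoulder blade, read 7.99, 8.50, 8.13 and 8.04 in the mutant distal arrays and 11.07, 10.47, 10.99 and 10.37 in the mutant proximal arrays. The control means were 10.61 ± 0.14 distally and 9.82 ± 0.79 proximally (SD, n = 4 each). The 4 mutant distal arrays lay below all other mandible arrays. The end difference was -2.56 ± 0.29 in the mutant (adjusted p = 1.15e-06) and 0.79 in the control (0.137), and the 2 differed by -3.35 ± 0.41 (0.000144). E330013P04Rik, a transcript 13 genes further along in the RefSeq order, read 7.13, 6.81, 6.48 and 6.62 distally and 8.46, 7.80, 8.39 and 7.90 proximally in the mutant. Its end difference was -1.38 in the mutant and 0.58 in the control, which differed by -1.96 ± 0.28 (0.00101).

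Emx2os, the antisense transcript whose gene model is separated from that of Emx2 by 54 bases, had the same order of the 4 group means. It read 7.16, 6.93, 7.26 and 7.04 in the mutant distal arrays and 8.18, 7.82, 8.26 and 7.74 in the proximal arrays (-0.90 ± 0.22, adjusted p = 0.0151), against 0.55 in the control. The difference between genotypes had an adjusted p of 0.102, and the call within the mutant was lost without distal array 2 (0.0578) or proximal arrays 1 (0.0574) or 3 (0.0637), and without both arrays of number 1, 2 or 3 (up to 0.0993). Emx2os was named after its values were seen, as the neighbour of Emx2. Lhfpl3, a tetraspan membrane protein, read 5.79, 5.40, 5.35 and 5.36 distally, all low values, and 7.60, 7.20, 7.59 and 6.88 proximally in the mutant. It was lower distally by -1.84 ± 0.17 in the mutant (4.65e-08) and by -0.36 in the control (0.294), and the 2 differed by -1.48 ± 0.24 (0.00906). Without the arrays numbered 1 in any group, the difference between genotypes stayed called for Emx2 (-2.86, 0.0117) and E330013P04Rik (-1.80, 0.0117) and was lost for Lhfpl3 (-1.41, 0.0905). Lhfpl3 also lost it without both mutant mandible arrays of number 2 (-1.49, 0.0528) or number 3 (-1.35, 0.141).

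**Figure D3:**
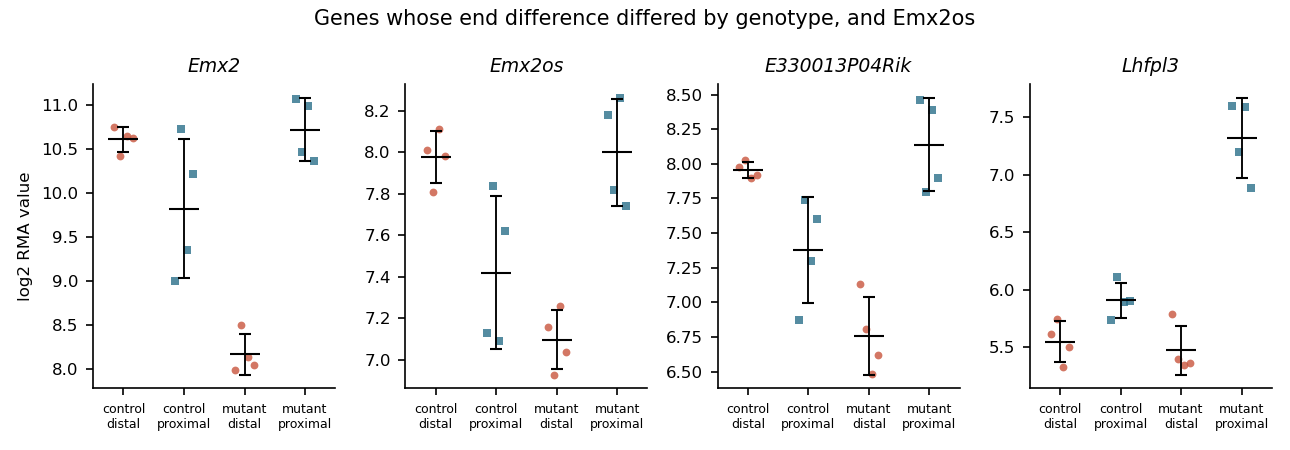
Log2 RMA values (vertical axes, which differ in range and do not start at 0) of Emx2, Emx2os, E330013P04Rik and Lhfpl3 in the distal (circles) and proximal (squares) ends of control and mutant mandible, 1 point per array, with the mean and SD of 4 arrays. The mutant distal arrays of Emx2 sit between 7.99 and 8.50, below all other mandible arrays, while for Lhfpl3 the mutant proximal arrays stand above the rest.

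A fit on the 16 mandible arrays alone, chosen after the data were seen, called 51 genes for the difference between genotypes, 43 of them more negative in the mutant and 8 more positive. In that fit 34 of the 51 were called in the mutant and not in the control, and 20 had opposite signs in the 2 genotypes. They included Arg1, whose end difference was -3.40 in the mutant and 0.15 in the control (a difference of -3.55, adjusted p = 0.00193, against 0.296 in the fit on all arrays). The count therefore depends on which arrays set the error.

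Genes of the immune lineage formed the group with the largest share of calls among the lists examined. Of 19 macrophage and leukocyte genes, all measured, 17 were lower at the distal end of the mutant mandible (3.58% of all genes were), none was higher, and in 18 every distal array was below every proximal array (12.4% of all genes). The median difference of the list was -1.32, against -0.031 for all genes. In the control mandible 1 of the 19, Mpeg1, was lower (-0.68, adjusted p = 0.0499), against 2.55% of all genes, and the median was -0.19. In bulk tissue, fewer cells of a type and less RNA per cell cannot be told apart.

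Ms4a7, a membrane protein of tissue macrophages, read 7.01, 7.56, 7.76 and 7.34 distally and 9.50, 9.51, 9.65 and 9.51 proximally. Its difference of -2.13 ± 0.29 (adjusted p = 1.99e-05) was the most negative of the list. C1qc, whose promoter is printed above, read 7.84, 7.92, 8.11 and 8.21 distally and 9.94, 9.79, 9.74 and 9.56 proximally (-1.73 ± 0.27, 0.000161), and C1qb read 8.81, 8.74, 9.07 and 9.16 against 10.54, 10.59, 10.59 and 10.61 (-1.64 ± 0.31, 0.0014). C1qa, their neighbour, differed by -1.40. The lysozyme gene Lyz2 fell by 1.59 on the log2 scale, the pore-forming protein gene Mpeg1 by 1.49, the complement receptor gene C3ar1 by 1.08 and Trem2 by 0.72. The defining receptor gene Csf1r read 9.57 to 9.91 distally and 10.88 to 11.14 proximally (-1.22 ± 0.32, 0.0214), and Adgre1, the F4/80 antigen, read 7.45 to 7.66 and 8.58 to 9.06 (-1.33 ± 0.24, 0.00097). Pf4 (0.10 ± 0.21, 0.94) and the mannose receptor gene Mrc1 (-0.76 ± 0.36, 0.319) did not pass.

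The mean of the 19 genes was 7.81, 7.80, 7.90 and 7.93 in the 4 mutant distal arrays and 9.20, 9.05, 9.12 and 8.95 in the 4 mutant proximal arrays. In the control it was 8.52, 8.02, 8.13 and 7.86 distally and 8.51, 8.10, 8.27 and 8.50 proximally, where the ends overlapped. The mutant proximal arrays were above all others of the mandible. In the mutant maxilla the mean was 8.41, 9.31, 9.01 and 9.47 distally and 8.79, 9.41, 9.29 and 8.84 proximally, so the mutant proximal mandible lay within the range of the maxilla and the list's median end difference there was -0.06. The end difference was lower in the mutant mandible than in the mutant maxilla for 6 of the 19 (1.34% of all genes were). For no single gene of the list did the difference between genotypes pass in the fit on all arrays; in the fit on the 16 mandible arrays 5 passed, with the smallest adjusted p at 0.00291, and all 19 were below 0. The count of 17 lay between 13 and 18 over all settings and was 16 without the arrays numbered 1. Csf1r lost its call without distal array 1 or proximal arrays 1, 2 or 3 (adjusted p up to 0.0647), and Cd68 without distal arrays 1 or 3 or proximal arrays 2 or 3 (up to 0.0778). Leaving out both arrays of a number ended the calls of Csf1r and Cd68 (each number, up to 0.133 and 0.157), Cx3cr1 (numbers 1 and 2, up to 0.106) and Ptprc (number 1, 0.0627). Erythroid genes (0 of 7 called, median 0.02) and endothelial genes (0 of 19, median 0.11) had no called member in the mutant.

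**Figure D4:**
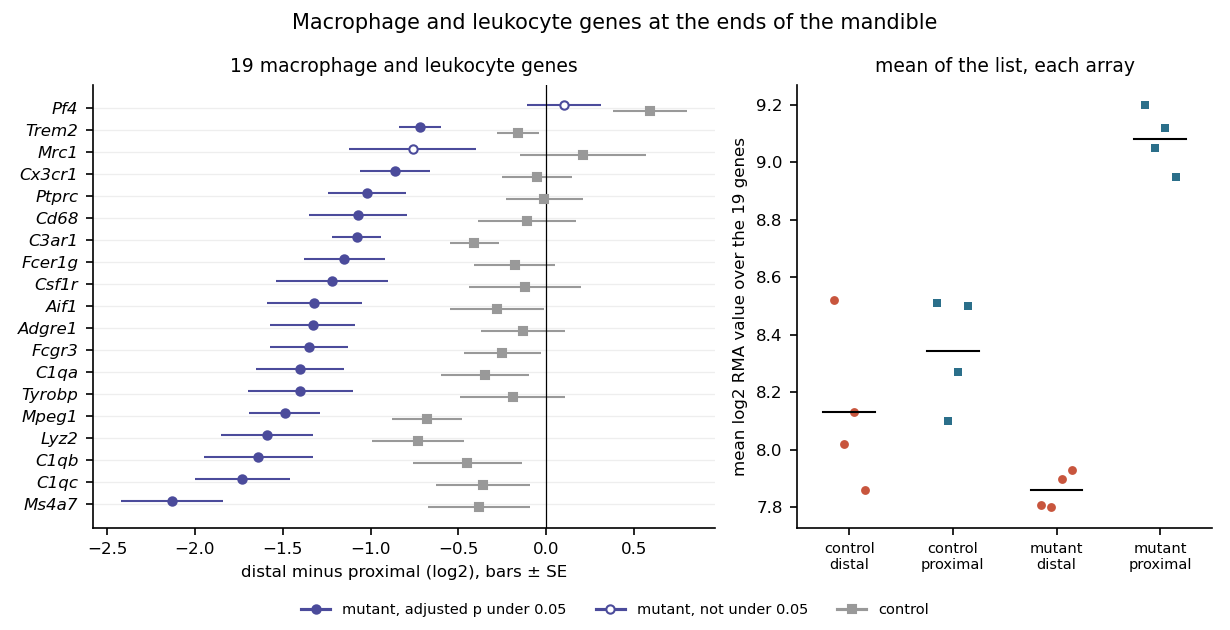
Left, distal minus proximal log2 difference (horizontal axis) of 19 macrophage and leukocyte genes in the mutant (circles, filled where the adjusted p was under 0.05) and the control mandible (squares), with SE bars. Right, the mean log2 RMA value of the 19 genes in each array (vertical axis, not starting at 0), with a line at the mean of 4 arrays; the mutant proximal arrays lie between 8.95 and 9.20 and all other mandible arrays between 7.80 and 8.52.

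S100a8 and S100a9, calcium-binding proteins of neutrophils, were lower distally in both genotypes. S100a8 read 5.48, 7.53, 5.91 and 6.66 distally and 10.03, 9.13, 9.58 and 7.97 proximally in the mutant (-2.78 ± 0.70, adjusted p = 0.0162; control -3.31), and S100a9 differed by -2.43 ± 0.72 (0.0467; control -3.49). The end that was low held values as far apart as 5.48 and 7.53. Both calls were lost without some single arrays: S100a8 without distal arrays 1 or 3 or proximal arrays 1 or 3 (up to 0.0732), S100a9 without 6 of the 8 arrays (up to 0.17, without proximal array 1). Without both arrays of a number the adjusted p reached 0.209 and 0.328.

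Known patterning genes were described from lists of the distal and proximal mesenchyme, chosen with earlier results of these data known. Of 17 measured genes of the distal list, 7 were higher at the distal end (1.46% of all genes were) and 1 was lower, with a median difference of 1.42. The 7 were Alx1, Pax3, Lhx9, Bmp4, Tbx3 (1.58 ± 0.27, adjusted p = 0.00044), Tbx2 (1.53 ± 0.38, 0.0141) and Alx4 (1.26 ± 0.28, 0.00682). Dlx3 was the lowered gene and belongs to both this list and the Dlx family. Hand2, the bHLH factor that sets distal identity in the arch, read 13.66, 13.42, 13.28 and 13.43 distally and 11.56, 12.04, 11.52 and 11.94 proximally. Its arrays did not overlap, but its difference of 1.68 ± 0.53 missed the threshold (0.0629) and passed with the replicate number as a block (0.0457). Msx1 (1.42 ± 0.61, 0.236) and Msx2 (2.10 ± 0.73, 0.108), homeobox genes downstream of BMP, also missed it with arrays that did not overlap. Leaving out both arrays of a number ended the calls of Tbx2 (each number, 0.0603 to 0.132) and Alx4 (number 1, 0.0517). Fitted on the 16 mandible arrays alone, Hand2, Msx1 and Msx2 passed at 4.15e-05, 8.26e-05 and 2.84e-05, in a fit that was added after the data were seen.

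Of 20 measured genes of the proximal list, 8 were lower at the distal end (3.58% of all genes) and 2 were higher, with a median of -1.21 (control -0.39). Gdf5, the ligand that marks forming joints, read 6.21, 6.31, 6.67 and 6.03 distally against 9.37, 8.59, 8.67 and 8.70 proximally (-2.53 ± 0.21, adjusted p = 8.38e-09). Meis1, a homeodomain cofactor, differed by -1.94 ± 0.20 (3.33e-07), and the forkhead genes Foxc1 and Foxd1 by -2.42 ± 0.42 (0.000613) and -1.78 ± 0.29 (0.000256). Sim2 and Emx2 are described above, and Tbx15 (-1.65 ± 0.42, 0.0183) and Pou3f3 (-1.19 ± 0.30, 0.0168) complete the 8. Tbx15 lost its call without distal arrays 1 or 4 or proximal arrays 1 or 3 (up to 0.0948), and Pou3f3 without distal array 4 or proximal arrays 1 or 3 (up to 0.0657). The 2 members that ran the other way were Eya1, a phosphatase and transcriptional cofactor (11.08 to 11.51 distally, 9.88 to 10.22 proximally, 1.32 ± 0.23, 0.000503), and the LIM-homeodomain gene Lhx8 (1.35 ± 0.34, 0.0176), whose call was lost without distal arrays 2 or 3 or proximal array 2 (up to 0.0787). Leaving out both arrays of a number also ended the calls of Pou3f3 (each number, up to 0.117), Tbx15 (numbers 1, 3 and 4, up to 0.149) and Lhx8 (numbers 1, 2 and 3, up to 0.199). Barx1, a marker of the molar field, read 10.64 to 11.52 distally and 12.36 to 12.97 proximally but missed the threshold (-1.57 ± 0.69, 0.256).

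The Dlx genes, homeobox genes whose nested expression sets the upper to lower order of the arch, were led by Dlx4 and Dlx3. Dlx4 read 7.05, 6.11, 6.60 and 6.67 distally and 9.39, 8.78, 9.53 and 8.97 proximally (-2.56 ± 0.27, adjusted p = 3.48e-07; control -1.55). Dlx3 read 9.05, 8.44, 8.56 and 8.87 distally and 11.25, 10.59, 10.77 and 10.35 proximally (-2.01 ± 0.47, 0.00945), while its control difference was -0.44 (0.762). Both had every distal array below every proximal one. The remaining members were Dlx1 (-1.53, 0.146), Dlx2 (-0.88, 0.0919), Dlx5 (-0.44, 0.639) and Dlx6 (0.25, 0.925). The median of the 6 was -1.20. In 5 of the 6 genes, all but Dlx6, every distal array was below every proximal array, as in 12.4% of all genes. With 2 of 6 called lower (3.58% of all genes), Dlx3 lost its call when both arrays of number 1, 2 or 3 were left out (adjusted p up to 0.0701).

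**Figure D5:**
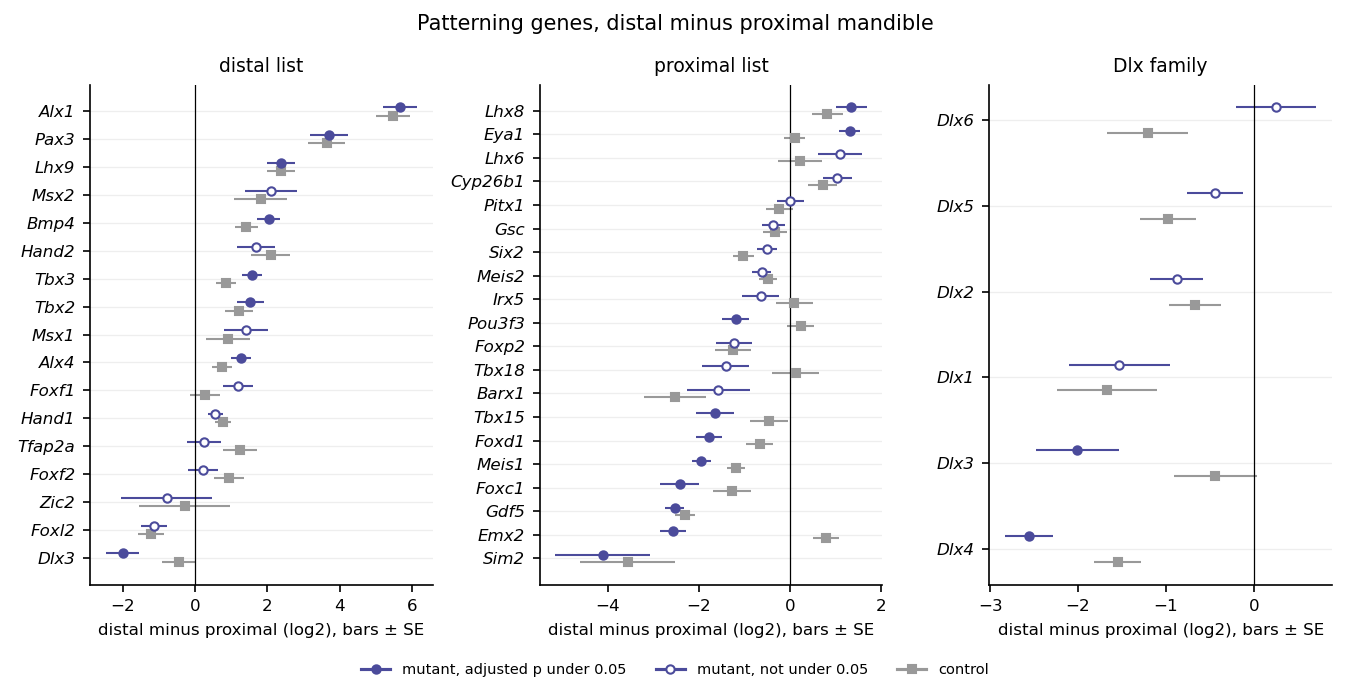
Distal minus proximal log2 difference (horizontal axis) of genes of the distal list, the proximal list and the Dlx family in the mutant mandible (circles, filled where the adjusted p was under 0.05) and the control mandible (squares), with SE bars. In the mutant 7 distal genes lie right of 0 and 8 proximal genes left of 0 with filled circles, and Dlx4 and Dlx3 are the filled members of the Dlx family.

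In the TGF-beta list, which holds ligands, receptors and response genes, 2 of 24 measured members were higher distally (1.46% of all genes) and 2 lower (3.58%), with a median of -0.09; 5 were lower with the replicate block, which called 986 genes in all. Inhba, the activin A subunit, read 9.88, 9.92, 9.75 and 9.85 distally and 8.25, 8.56, 8.33 and 8.48 proximally, a rise of 1.45 ± 0.21 (adjusted p = 6.37e-05; control 0.55). The response gene Tagln rose by 0.98 ± 0.24 (0.012; 0.0605 without proximal array 3, and lost without both arrays of number 2, 3 or 4, up to 0.103). Tgfbi, a matrix protein induced by TGF-beta, read 10.91 to 11.13 distally and 12.08 to 12.40 proximally (-1.22 ± 0.25, 0.003). Lmcd1 (-0.78, 0.0486) lost its call without 7 of the 8 arrays.

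Of 26 BMP genes, 3 were higher distally (1.46% of all genes were) and 4 lower (3.58%), with a median of 0.24. Beside the ligand Bmp4, the decoy receptor Bambi read 11.64 to 11.82 distally and 10.19 to 10.37 proximally (1.46 ± 0.31, adjusted p = 0.00386), and the target Id4 rose by 1.02 ± 0.25 (0.0141; lost without both arrays of any number, up to 0.0959). Of the lowered genes, Bmpr1b, a type I receptor of cartilage, read 8.08, 8.71, 8.68 and 8.06 distally against 11.28, 10.97, 11.26 and 11.07 proximally (-2.77 ± 0.32, 1.56e-06). The other 3 were Gdf5, Bmper and the BMP antagonist Chrdl1 (-1.10).

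Of 29 Wnt genes, 5 were higher distally (1.46% of all genes) and 3 lower (3.58%), with a median of 0.21. The raised genes were Dkk1, the R-spondin Rspo2, which strengthens Wnt signals (12.28, 12.50, 12.33 and 12.44 distally against 11.11, 11.12, 11.32 and 11.53 proximally, 1.11 ± 0.22, adjusted p = 0.00246), the secreted antagonist Notum (1.12 ± 0.21, 0.00153), Dkk3 (0.80 ± 0.19, 0.0119; 0.0503 without proximal array 1, and lost without both arrays of number 1, 3 or 4) and Sfrp4 (1.23). Rspo2 did not differ beyond its error in the control (-0.04, 0.982). Another Rspo2 probe set, with a lower mean level (7.73 against 11.69), differed by 0.17 in the mutant. The antagonist Sfrp1 was lower, at 10.27 to 10.64 distally and 11.54 to 12.12 proximally (-1.43 ± 0.31, 0.00436). Sfrp2 (-0.75, 0.0267) and Lgr5 (-0.88, 0.0259) were also lower, and lost their calls without 6 and 7 of the 8 arrays.

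The retinoic acid list had 4 of 13 members lower distally (3.58% of all genes were) and none higher, with a median of -0.24. Aldh1a2, which makes retinoic acid, read 9.64, 9.19, 9.83 and 8.75 distally and 11.15, 11.19, 10.51 and 10.80 proximally (-1.56 ± 0.37, adjusted p = 0.00992; 0.0528 without distal array 4). Cyp26a1, which degrades it, differed by -1.25 ± 0.26 (0.00305), the retinol importer Stra6 by -1.17 ± 0.25 (0.00506) and the retinal reductase Dhrs3 by -0.80 ± 0.21 (0.0184; lost without distal array 2 or proximal arrays 1 or 2). Leaving out both arrays of a number ended the calls of Aldh1a2 (numbers 1, 2 and 4, up to 0.103), Dhrs3 (1, 2 and 3, up to 0.22) and Stra6 (number 3, 0.0568). Of 17 FGF genes (median 0.01), 2 were higher (1.46% of all genes) and 1 lower (3.58%). The targets Etv4 (0.70 ± 0.13) and Etv5 (0.66 ± 0.13), both at 0.00162, were higher. The receptor Fgfr4 was lower (-0.92, 0.0269), and its call was lost without distal arrays 2 or 4 or proximal arrays 1 or 2. Other Fgfr4 probe sets differed by -0.28 and -0.04. With the replicate block Fgf7 was lower too (-1.05, 0.0286). No Hedgehog gene of 14 passed (median 0.18), and Foxf1 did with the replicate block (1.19, 0.0155). Shh read 10.45, 10.12, 10.41 and 10.69 distally and 8.99, 10.01, 10.29 and 10.48 proximally in the mutant (0.47 ± 0.37, 0.673), while in the control it was 1.82 higher distally (0.00346), and the difference between genotypes did not pass (0.933).

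Over all genes, 1.46% were called higher and 3.58% lower distally in the mutant, and 2.29% and 2.55% in the control. Among tissue lists, cartilage had 2 of 20 genes lower distally, the factor Sox9 (-1.01 ± 0.30, adjusted p = 0.0465) and the collagen gene Col9a1 (-1.03 ± 0.28, 0.0248). The list median was -0.26, and the count ran from 0 to 1 when 1 mutant mandible array, or both of a number, were left out. In the tendon list (11 genes, median -0.50), Tnmd, a tendon membrane protein, was higher distally (9.27 to 9.91 against 7.38 to 7.72, 2.03 ± 0.49, 0.0125; lost without both arrays of any number, up to 0.092) and Thbs4 lower (7.40 to 7.90 against 9.35 to 9.84, -1.89 ± 0.32, 0.000384). None of 35 skeletal muscle genes passed in the mutant, where all 35 were below 0 with a median of -0.80. In the control 21 of the 35 were called lower distally, against 2.55% of all genes. The difference between genotypes was called for 0 of the 35 (median 1.24). The mean of the muscle list was 9.36, 8.22, 9.12 and 8.87 in the mutant distal arrays and 10.19, 9.90, 9.27 and 9.20 in the proximal arrays, so the ends overlapped. Of 8 muscle progenitor genes (median -0.22), 1 was called lower distally, Lhx2 (-2.35 ± 0.52, 0.00592). Another, Pax3, was called higher (3.71).

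The neuron list had 2 of 20 members lower (3.58% of all genes were), the neurofilament genes above, with a median of -0.55. Its mean was 7.15, 7.14, 7.17 and 7.21 distally and 8.32, 7.50, 8.47 and 7.15 proximally, so proximal arrays 1 and 3 were high, and Prph read 8.33 and 8.82 in those 2 arrays against 6.39 and 6.17 in the others. Without proximal array 1, Nefl differed by -2.89 (adjusted p = 0.0659) and Nefm by -2.70 (0.118), and without proximal array 3 Nefm differed by -2.84 (0.0937). Of 10 glial genes (median -0.56), 2 were lower (3.58% of all genes). These were Fabp7 (-2.45 ± 0.69, adjusted p = 0.0353, and 0.0578 with the replicate block) and Sox10 (-0.82 ± 0.23, 0.0292). Other Sox10 probe sets differed by -0.38 and -0.24. The count was 0 to 1 when 1 mutant mandible array, or both of a number, were left out. Of 23 oral epithelium genes, Krt19 alone was called lower (-1.07, 0.0242), against 3.58% of all genes. Its call was lost without distal array 2 or proximal array 2. In the control 8 of the 23 were higher distally (2.29% of all genes were). The list median in the mutant was 0.32, and the desmocollin gene Dsc3 passed with the replicate block (1.61, 0.00484). The difference between genotypes was called for 0 of the 23 (median -0.58). The proliferation list had 0 of 19 called (median 0.06), and Mki67 read 13.04 to 13.25 distally and 12.86 to 12.95 proximally (0.23 ± 0.08, 0.106, and 0.0461 with the replicate block).

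The remaining lists had few calls, to be set against 1.46% of all genes called higher and 3.58% called lower distally. In the tooth germ list (20 genes, median 0.17), Bmp4 and Lhx8 were higher distally and Sfrp2 and the zinc finger gene Osr2 lower (-1.17 ± 0.31, adjusted p = 0.0217; lost without distal arrays 2 or 4 or proximal arrays 1 or 3). Of 8 endothelin genes (median 0.01), the ligand Edn3 was lower, at 9.51 to 9.86 distally and 10.30 to 10.47 proximally (-0.73 ± 0.17, 0.00921; control -0.70; lost without both arrays of number 2 or 4, up to 0.0998), and the ligand Edn1 read 7.37 to 7.63 and 7.27 to 7.71. Of 18 hypoxia and glycolysis genes (median 0.17), Hk2 (0.49 ± 0.13, 0.0191) and Ldha (0.28 ± 0.08, 0.0408) were higher, 5 passed with the replicate block, and 0 to 1 passed when 1 mutant mandible array, or both of a number, were left out. Of 5 pigment cell genes (median -0.32), Mitf was lower (-1.0 ± 0.27, 0.023; lost without distal arrays 1, 2 or 3 or proximal arrays 1 or 3). Called members of the matrix list (Lox, 1 of 31), the bone list (Dlx3, 1 of 9), the lower jaw list (Bmp4, Alx4 and Dlx3, 3 of 10) and the Hox list (Hoxa2, 1 of 10) are given above, and 0 of 7 inner ear genes passed. The count of the matrix list is close to the share of all genes called lower (3.58%). Fgfr4, Krt19, Osr2, Mitf, Sfrp2 and Lgr5 lost their calls without both mutant mandible arrays of any number (adjusted p up to 0.34, for Krt19).

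Some of the named genes lie next to each other in the RefSeq order. The nearest measured neighbours of 33 named genes included 60 genes outside those 33, of which 6 were called (10%, against 5.03% of all genes), and each went the same way as the named gene beside it. These were Tbx2 (beside Tbx4 and 2610027K06Rik), Dlx4 (beside Dlx4os), Emx2os (beside Emx2), Epha4, Dock4 and Akap7. Pax3 with Gm2102 and Nefl with Nefm are neighbours that were both chosen for the size of their difference.

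In the mutant maxilla the arrays labelled distal and proximal gave 0 called genes with limma, 555 with an unadjusted p below 0.05 (4.05%) and 201 with ends that did not overlap (1.47%). Maxilla arrays of 1 group were less alike. Their mean correlation with the others of the group was 0.945 to 0.976, against 0.985 to 0.993 in the mutant mandible. The 0 calls therefore do not show that the maxilla ends were alike. The end difference of the mutant mandible minus that of the mutant maxilla was called for 238 genes (1.74%), 54 of them higher (0.394%) and 184 lower (1.34%), and for 22 of the 30 genes above. This test shares the mandible arrays with the end difference, so it is not separate evidence of it. Alx1 differed by 5.67 in the mandible and 0.51 in the maxilla, Pax3 by 3.71 and -0.29, and Ghrh by -3.36 and 0.09. Cbln4 differed by 2.77 in the mandible and -1.49 in the maxilla, Tnmd by 2.03 and -1.07, S100a8 by -2.78 and 1.40 and S100a9 by -2.43 and 1.66. The jaw difference lost its call without single mandible arrays for Gm2102 (7 of the 8 arrays, adjusted p up to 0.0917), S100a9 (6 arrays, up to 0.0875) and S100a8 (4 arrays, up to 0.0682). Leaving out both mutant mandible arrays of a number ended it for Gm2102 (each number, up to 0.138), S100a9 (numbers 1, 2 and 3, up to 0.167) and S100a8 (numbers 1 and 3, up to 0.143). The same held for Arg1 (each number, 0.0532 to 0.0803) and Tnmd (numbers 1 and 4, up to 0.0742).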

How the data were processed

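The deposited values are log2 intensities made by the authors with RMA (background correction, quantile normalisation and probe summary), per the submitters' processing notes, from Affymetrix mouse expression arrays labelled from 5 µg of total RNA, per the labels. The RMA version is not given in the sources used here, and no detection calls were used. Of 45101 probe sets, 34945 carry 1 gene symbol, 932 several and 9160 none; 64 control probe sets were left out. A probe set was kept if it exceeded its array's 40th percentile on at least 4 arrays, and the one with the highest mean over all 32 arrays stood for its gene, which left 13705 genes.

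A model with 8 groups on all 32 arrays (limma 3.58.1 in R 4.3.3, 24 residual degrees of freedom) gave differences, moderated p-values and Benjamini-Hochberg adjustment over all genes. It was tested on simulated data. Named genes were Tgfbr1, the 15 largest differences each way among called genes with no overlap between ends, the largest interaction calls, and up to 6 members of each list with the smallest adjusted p, plus all Dlx genes; Sfrp4, Chrdl1, Spi1, Emx2os, Six3, Prrx1, Twist1, Pdgfra, Msx1, Msx2, Barx1, Csf1r, Adgre1, Cd68, C1qa, C1qb, Pf4, Mrc1, Shh, Tbx2, Tbx15 and Pou3f3 were added after values were seen. Members and lists were chosen with earlier results of these data known.

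Arrays of 1 replicate number deviated together between the ends of the mutant mandible (correlations 0.67, 0.19, 0.28 and 0.32). By a preset rule (all above 0.1) the numbers counted as pairs, although the labels do not say that a number marks 1 embryo. Without number 1 the correlations were 0.09, 0.09 and 0.07. The main fit did not pair the arrays, and the replicate number entered as a block only in alternative fits. Alternatives covered the block, the arrays in the fit, the filter, the probe set rule, scaling and each array left out. Promoter sequences are RefSeq's (GRCm38.p6).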

Additional observations from a re-analysis of the deposited data

Results flagged for a closer look

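Lhfpl3 had 1 distal mutant mandible array far from the others of its group, replicate 1 at 5.79 against 5.35 to 5.40. It was the only such array in 86 groups of 4 examined, of which chance gives about 1 in 20.

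The end difference of the mandible differed between mutant and control, by a test of that difference itself, for Emx2 (-3.35), E330013P04Rik (-1.96) and Lhfpl3 (-1.48), all on the log2 scale. That of Lhfpl3 was lost without both mutant mandible arrays of number 2 (0.0528) or 3 (0.141).

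The end difference of the mutant mandible minus that of the mutant maxilla was tested in the same way, and 29 genes that passed are listed here. They are not all the genes described above that passed. Some members of the gene lists also passed and are left out, among them 6 of the 19 macrophage and leukocyte genes. On the log2 scale the difference between the jaws was positive for Alx1 5.17, Cbln4 4.26, Pax3 4.00, Gm2102 3.12, Tnmd 3.11, Dlg2 3.08, Hpgd 2.84, 2610027K06Rik 2.63, Lhx9 2.54, 9130024F11Rik 2.42, Tbx4 2.40, Lrrn3 2.12 and Bmp4 1.81. It was negative for S100a8 -4.18, S100a9 -4.09, Arg1 -3.90, Ghrh -3.45, Slitrk1 -3.43, Dlx4os -3.42, 3110099E03Rik -3.37, Epyc -3.01, Hmx1 -3.01, Lox -2.92, Bmper -2.85, Gbx2 -2.68, Dlx4 -2.43, Emx2 -2.33, Lhfpl3 -1.48 and E330013P04Rik -1.10. The calls of Gm2102, S100a8 and S100a9 were lost without some single arrays (adjusted p up to 0.0917). Without both mutant mandible arrays of some numbers they were lost as well (up to 0.167), as were those of Arg1 and Tnmd (up to 0.0803).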

How the results depend on the processing

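With 690 genes called at the 2 ends of the mutant mandible, the replicate block on all 32 arrays gave 986 calls, 676 of them among the 690, and 4 for the difference between genotypes. Fits on the 8 arrays alone gave 1622 calls, 2191 with the replicate block, and a fit on the 16 mandible arrays, added after the data were seen, gave 1225 (and 1256 for the control mandible). Leaving out 1 array gave 450 to 659 calls, and leaving out both mutant mandible arrays of a number gave 301 to 407. Leaving number 1 out of every group gave 690, with 511 of the original calls among them. Centring the arrays on their medians gave 768 calls, 21.2% of them higher distally against 29.0%.

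The 3 calls for the difference between genotypes became 51 with only the arrays of the comparison (49 with the replicate block) or the 16 mandible arrays, 13 with number 1 as a covariate, 9 with a variance trend and robust fit, and 6 after repeated quantile normalisation; leaving out 1 mutant mandible array, or both of a number, gave 2 to 6. The 238 calls for the difference between the jaws became 330 with the block and 103 to 206 with such arrays left out. The mutant maxilla gave 0 calls under the alternatives run for it, which leave out no single mandible array. The causes were not tested. Of 6253 values of single genes recomputed over 25 settings, 5714 kept their side of the threshold, 353 lost their call and 186 gained one. Sign changes were counted only for genes called in the main fit or in the setting, and 0 were found. Those of genes called in neither are among the 5714. The block ended the call of Fabp7 and gave calls to other list members, Hand2 among them. RMA values near the 40th percentile limit the size of differences of low genes, and 4 arrays per end limit the precision.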
